A study of Mus musculus with 18 samples.

Results

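The genes described here are 34 genes of cholesterol and fatty acid synthesis, chosen by gene symbol with earlier results of these data known. Their RNA was measured on Illumina MouseWG-6 v2 bead arrays in bone marrow-derived macrophages (BMM). The table that pairs probes with genes lists 31 of the 34, and 30 were detected on at least 1 of the 18 arrays and tested among 12417 genes in all. Hmgcs1, Fdft1 and Acat2 were not found in the probe table used here, and the probe for Acaca, the carboxylase that commits acetyl-CoA to fatty acid synthesis, was listed but not detected on any array. Of the 30 genes, 17 were detected on all 18 arrays, and 5 were detected on 9 arrays or fewer (Srebf1 on 9, Sc5d on 8, Mvk on 6, and Fasn and Fads2 on 1 each). Each gene is represented by its brightest detected probe. Values are the deposited log2 intensities, on which a difference of 1 is a doubling, and levels of different genes were not compared because each probe has its own brightness.

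Cells build cholesterol from acetyl-CoA through mevalonate, the isoprenoid farnesyl diphosphate, squalene and lanosterol, and build fatty acids from the same precursor by synthesis, elongation and desaturation. The transcription factors SREBP-1 and SREBP-2, encoded by Srebf1 and Srebf2, activate most of these genes when membrane sterol is low, and the INSIG proteins hold them inactive in the endoplasmic reticulum when sterol is plentiful. In macrophages the pathway is known to be remodelled by Toll-like receptor ligands, and its intermediates and the oxysterols made from cholesterol also signal to the nuclear receptor LXR.

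BMM came from C57BL/6 mice that were Nur77-KO, lacking the nuclear receptor Nur77 (gene Nr4a1), or WT, and were grown for 8 days with L929-conditioned medium. Each genotype was treated with LPS, a bacterial ligand of Toll-like receptor 4 (100 ng/ml, 8 h), treated with IL-4, a type 2 cytokine (50 ng/ml, 8 h), or left unstimulated (labelled 0 h), which gives 6 groups of 3 arrays. Each batch of marrow came from 3 mice per genotype, and the number of batches is not given in the sources used here. The age and sex of the mice are not given in the sources used here, nor whether the 3 arrays of a group are separate mice or separate cultures, so the spread that the p-values rest on is that between arrays and may be technical. The unstimulated arrays are not matched in time to the stimulated ones, and a response to LPS or IL-4 therefore includes any change over 8 h of culture, whereas LPS and IL-4 arrays are matched in time. In bulk RNA, fewer cells of a type and less RNA per cell cannot be told apart.

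The stimuli and cells carried their usual markers, but the arrays were uneven. All 4 detected genes of the LPS response list (such as Nos2 and Il6) rose with LPS in both genotypes, and all 5 genes of the IL-4 list (such as Arg1) rose with IL-4. The 7 detected macrophage markers were detected on every array. The Nr4a1 probe was detected on 0 of 18 arrays and so does not check the genotype. Replicate 1 of Nur77-KO with LPS, replicate 1 of Nur77-KO with IL-4, replicate 3 of WT with LPS and replicate 1 of WT with IL-4 stood apart, with a root mean square deviation from their group mean over all genes of 0.389 to 0.444, against 0.145 to 0.299 on the other 14 arrays. The mean log2 value of 6 stromal marker genes (collagens, Dcn and PDGF receptors) was 5.11 to 5.43 on those 4 arrays, against 6.14 to 8.14 on the other 14. The 4 arrays also held the highest mean of 6 neutrophil marker genes (such as S100a8 and Ltf) in their group. It was 8.67 (Nur77-KO, LPS), 9.29 (Nur77-KO, IL-4), 8.02 (WT, LPS) and 7.885 (WT, IL-4). The Y-linked gene Eif2s3y measured 8.91 to 9.68 on 7 of the 9 Nur77-KO arrays, against 4.45 to 4.76 on all 9 WT arrays and on the remaining 2 of Nur77-KO (replicate 1 with LPS and replicate 1 with IL-4). Genotype and Y-linked expression therefore cannot be told apart in unstimulated cells, where all 3 Nur77-KO arrays and no WT array carried Eif2s3y. The X-linked gene Xist was detected on all 18 arrays. Its brightest probe measured 8.93 to 9.89 on the 7 arrays with Eif2s3y, against 10.45 to 11.44 on the other 11. Its dimmest probes overlapped between these sets, and the sex of the cells on each array was not tested. Each comparison was also fitted without the 4 arrays that stood apart, a choice made after their values were seen.

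A group of sterol and lipid genes was lower with LPS in both genotypes. Ebp, Dhcr7, Stard4, Elovl6, Fads1 and Lpin1 fell with LPS in Nur77-KO and WT BMM alike, and Srebf2 rose in both. In Nur77-KO BMM 1 of 30 genes rose and 7 fell (limma, adjusted p under 0.05), where 14.1% of all genes rose and 23.7% fell. In WT BMM 2 of 30 rose and 7 fell, against 15.5% and 24.3% of all genes. The share that fell was therefore near that of all genes, and the share that rose was 3.33% in Nur77-KO and 6.67% in WT BMM. Of all genes that passed in Nur77-KO BMM 37.3% rose, against 15.7% with median normalization. A log2 fold change above 0 was found for 8 of 30 genes in Nur77-KO BMM, against 44.9% of all genes, and for 7 of 30 in WT BMM, against 45.8%. The median log2 fold change of the 30 genes was -0.46 in Nur77-KO BMM, against -0.08 over all genes, and -0.35 in WT BMM, against -0.06 over all genes.

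Without the 4 arrays that stand apart, 4 of 30 genes rose and 12 fell with LPS in Nur77-KO BMM, against 17% and 28% of all genes, and 4 rose and 11 fell in WT BMM, against 18.4% and 27.5%. Beside the 7 genes shared by both genotypes with all arrays, Idi1 and Cyp51 then rose and Sqle, Msmo1, Elovl1 and Scd1 fell in both. In Nur77-KO BMM Insig2 also rose and Mvk and Scd2 fell, and in WT BMM Hsd17b7 rose and Mvd fell. Markers of other cells differed with LPS as well. Of 6 detected neutrophil markers 1 rose in Nur77-KO BMM (Camp, log2 fold change 1.53, adjusted p = 0.027) and 2 in WT BMM (Camp, 2.93, adjusted p = 0.00022, and S100a8, 1.52, adjusted p = 0.0096). The mean of the list was 7.47 to 8.67 with LPS, against 7.88 to 8.06 unstimulated, in Nur77-KO BMM, and 6.71 to 8.02 with LPS, against 5.89 to 6.41 unstimulated, in WT BMM. In each genotype the highest LPS mean was on the array that stands apart. Of 6 stromal markers 0 passed, and 3 were lower without overlap, all 3 in Nur77-KO BMM. The list averaged 5.41 to 8.06 with LPS, against 7.89 to 8.14 unstimulated (Nur77-KO), and 5.39 to 6.83 with LPS, against 6.32 to 6.59 unstimulated (WT). Their part in the changes of the lipid genes was not tested.

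**Figure D1:**
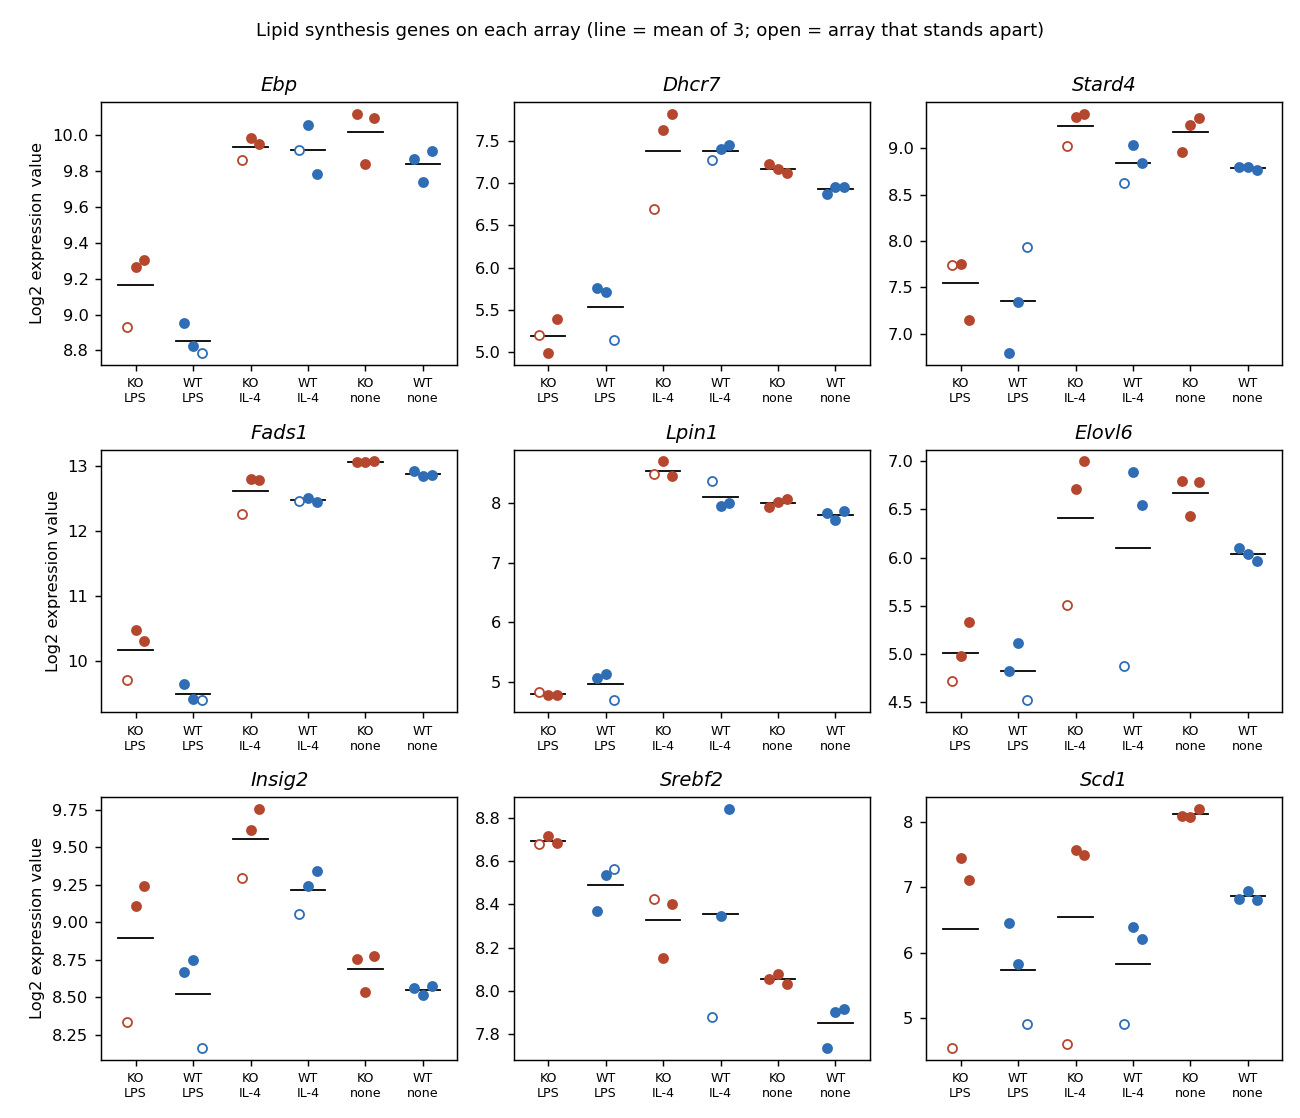
Log2 expression value of 9 lipid synthesis genes on each of the 18 arrays, by group on the horizontal axis (red, Nur77-KO; blue, WT), with the mean of 3 arrays as a line and the 4 arrays that stand apart as open circles. In the panels of Ebp, Dhcr7, Stard4, Fads1 and Lpin1 all 6 LPS arrays lie below all 12 other arrays, and in that of Scd1 the 4 open circles are the lowest points.

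Among the regulators, Srebf2, which encodes SREBP-2, measured 8.68, 8.72 and 8.68 in LPS-treated Nur77-KO BMM, against 8.06, 8.08 and 8.03 in unstimulated Nur77-KO BMM. The WT values were 8.37, 8.54 and 8.56 with LPS, against 7.74, 7.90 and 7.92 unstimulated. No LPS array overlapped an unstimulated array of its genotype, and the log2 fold change was 0.64 in both (SE 0.18, adjusted p = 0.011 in Nur77-KO and 0.010 in WT BMM). This increase depends on the scaling: with median normalization, which moves the median of all genes to -0.46 in Nur77-KO BMM, the Nur77-KO value was -0.16 (adjusted p = 0.849). It also depends on the probe, since a second Srebf2 probe, detected on 18 arrays, changed by 0.11 in Nur77-KO and 0.26 in WT BMM. The Nur77-KO call was also lost with the mean of the gene's probes. The WT call was lost with median normalization and with slide as a fixed block. Srebf1, Insig1 and Insig2 did not pass the test with LPS in either genotype, with log2 fold changes between -0.19 and 0.21, but without the 4 arrays Insig2 was 0.49 higher in Nur77-KO BMM (adjusted p = 0.0041).

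Of the early enzymes, Idi1, the isopentenyl diphosphate isomerase, rose with LPS in WT BMM, with 7.00, 7.20 and 6.88 against 6.39, 6.40 and 6.36 unstimulated (log2 fold change 0.64, SE 0.16, adjusted p = 0.0039). Idi1 lost this call with median normalization (limma, adjusted p = 0.733). In Nur77-KO BMM it measured 6.83, 7.11 and 7.03 with LPS, against 6.73, 6.44 and 6.69 unstimulated, a difference of 0.37 that did not pass (adjusted p = 0.080), but without the 4 arrays was 0.45 and did (adjusted p = 0.0090). Mvd, which decarboxylates mevalonate diphosphate, fell in WT BMM, with 7.45, 7.33 and 6.27 against 7.84, 8.43 and 8.12 unstimulated (log2 fold change -1.11, SE 0.43, adjusted p = 0.049). The lowest LPS value is that of WT replicate 3, which stands apart, and the fold change was -0.74 without it. The Mvd call was also lost without WT LPS replicate 2 or any 1 of the 3 unstimulated WT arrays (adjusted p up to 0.224). Fdps, the farnesyl diphosphate synthase, Pmvk and Mvk did not pass in either genotype. A second, dimmer Fdps probe, detected on 14 arrays, changed by -1.01 in Nur77-KO and -1.33 in WT BMM. The brightest Fdps probe changed by -0.50 and -0.39.

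Of the enzymes from squalene to cholesterol, Ebp, the sterol isomerase (chromosome X, 8185329 to 8193512, GRCm38.p6), measured 8.93, 9.27 and 9.30 in LPS-treated Nur77-KO BMM, against 10.12, 9.84 and 10.09 unstimulated. For WT BMM the values were 8.95, 8.82 and 8.79 with LPS, against 9.87, 9.74 and 9.91 unstimulated. The groups did not overlap, and Ebp fell by 0.85 on the log2 scale in Nur77-KO (SE 0.14, adjusted p = 0.00012) and by 0.98 in WT BMM (SE 0.14, adjusted p = 2.4e-05). Dhcr7, the reductase of the last step to cholesterol (chromosome 7, 143823167 to 143848410), measured 5.21, 4.99 and 5.39 in LPS-treated Nur77-KO BMM, against 7.22, 7.17 and 7.11 unstimulated. The arrays of WT BMM read 5.76, 5.71 and 5.14 with LPS, against 6.87, 6.95 and 6.95 unstimulated. All 3 LPS-treated Nur77-KO arrays were at background for Dhcr7, so its decrease is given there as at least 2.87-fold, the unstimulated mean set against the detection floor of the LPS arrays (per array, the dimmest detected probe, averaged), as for every such bound below. In WT BMM, where 2 of 3 LPS arrays detected it, Dhcr7 fell 2.62-fold (adjusted p = 5.1e-06 in Nur77-KO and 0.00016 in WT BMM). With median normalization the WT calls of Ebp and Dhcr7 were lost (limma, adjusted p = 0.124 and 0.056), and the Nur77-KO calls held. The other 8 genes of these steps (Sqle, Lss, Cyp51, Tm7sf2, Msmo1, Nsdhl, Hsd17b7 and Sc5d) did not pass in either genotype. Sqle, the squalene epoxidase, and Msmo1, the methylsterol monooxygenase, fell in both genotypes without the 4 arrays (log2 fold change of Sqle, -0.54 in Nur77-KO and -0.58 in WT BMM, and of Msmo1, -0.38 in Nur77-KO and -0.40 in WT BMM), and Cyp51, the lanosterol demethylase, then rose in both (0.41 in Nur77-KO and 0.42 in WT BMM).

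Stard4, which carries sterol between membranes in the cytosol, measured 7.74, 7.75 and 7.15 in LPS-treated Nur77-KO BMM, against 8.96, 9.25 and 9.33 unstimulated. Its WT values were 6.79, 7.34 and 7.93 with LPS, against 8.80, 8.79 and 8.77 unstimulated. Stard4 fell 3.11-fold in Nur77-KO (adjusted p = 4.4e-05) and 2.70-fold in WT BMM (adjusted p = 0.00014), with no overlap.

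The largest decreases were those of Fads1 and Lpin1. Fads1, a front-end desaturase on the way to arachidonic acid (chromosome 19, 10182877 to 10196874), measured 9.71, 10.47 and 10.31 in LPS-treated Nur77-KO BMM, against 13.06 on all 3 unstimulated arrays. WT BMM gave 9.64, 9.42 and 9.39 with LPS, against 12.91, 12.84 and 12.85 unstimulated. Fads1 fell 7.45-fold in Nur77-KO (log2 fold change -2.90, SE 0.18, adjusted p = 3.6e-09) and 10.4-fold in WT BMM (-3.38, SE 0.18, adjusted p = 5.3e-10). A second Fads1 probe was detected on only 2 arrays and changed by -0.04 in Nur77-KO and -0.17 in WT BMM.

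Lpin1, the phosphatidate phosphatase that makes diacylglycerol (chromosome 12, 16535669 to 16653903), measured 4.84, 4.78 and 4.79 in LPS-treated Nur77-KO BMM, against 7.93, 8.02 and 8.07 unstimulated. The WT values were 5.07, 5.13 and 4.69 with LPS, against 7.83, 7.71 and 7.86 unstimulated. No LPS array detected it, so Lpin1 fell at least 5.12-fold in Nur77-KO and at least 4.01-fold in WT BMM (adjusted p = 9.4e-11 and 3.4e-10). A second Lpin1 probe was also detected on 12 arrays, with a mean of 4.54 (Nur77-KO) and 4.55 (WT) with LPS, against 7.28 (Nur77-KO) and 7.14 (WT) unstimulated.

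Among the other fatty acid genes, Elovl6, which elongates long-chain fatty acids (chromosome 3, 129532386 to 129638495), measured 4.72, 4.98 and 5.33 in LPS-treated Nur77-KO BMM, against 6.79, 6.43 and 6.78 unstimulated. For WT BMM the values were 4.83, 5.11 and 4.52 with LPS, against 6.10, 6.04 and 5.96 unstimulated. No LPS array detected it, and Elovl6 fell at least 2.02-fold in Nur77-KO (adjusted p = 0.0054) and at least 1.18-fold in WT BMM (adjusted p = 0.032). The WT call was lost without LPS replicate 1 or 3 or any 1 of the 3 unstimulated arrays (adjusted p up to 0.102). Scd2, a stearoyl-CoA desaturase, fell in Nur77-KO BMM, with 4.61, 5.05 and 5.97 against 6.77, 7.20 and 7.30 unstimulated (log2 fold change -1.88, SE 0.51, adjusted p = 0.0076). Only 1 of these 3 LPS arrays detected it. In WT BMM Scd2 measured 4.78, 4.69 and 4.81 with LPS, against 5.10, 5.32 and 6.09 unstimulated, where only 1 array detected it. Scd1 and Scd2 are close paralogs represented by 1 probe each, and how far each probe reads the other gene was not tested. Acly, Acss2, Fasn, Fads2 and Elovl1 did not pass in either genotype, with log2 fold changes between -0.89 and 0.27. Scd1 did not pass either, at -1.76 in Nur77-KO (adjusted p = 0.081) and -1.13 in WT BMM (adjusted p = 0.268). Without the 4 arrays Elovl1 fell by 0.34 on the log2 scale in Nur77-KO (adjusted p = 0.033) and by 0.33 in WT BMM (adjusted p = 0.041), and Scd1 by 0.85 in Nur77-KO (adjusted p = 0.0016) and by 0.72 in WT BMM (adjusted p = 0.0045). The decrease of Elovl1 depends on the probe. With all arrays its other probes, each detected on 18 arrays, changed by -0.26, 0.12 and 0.12 in Nur77-KO BMM. In WT BMM they changed by 0.08, 0.15 and 0.36.

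**Figure D2:**
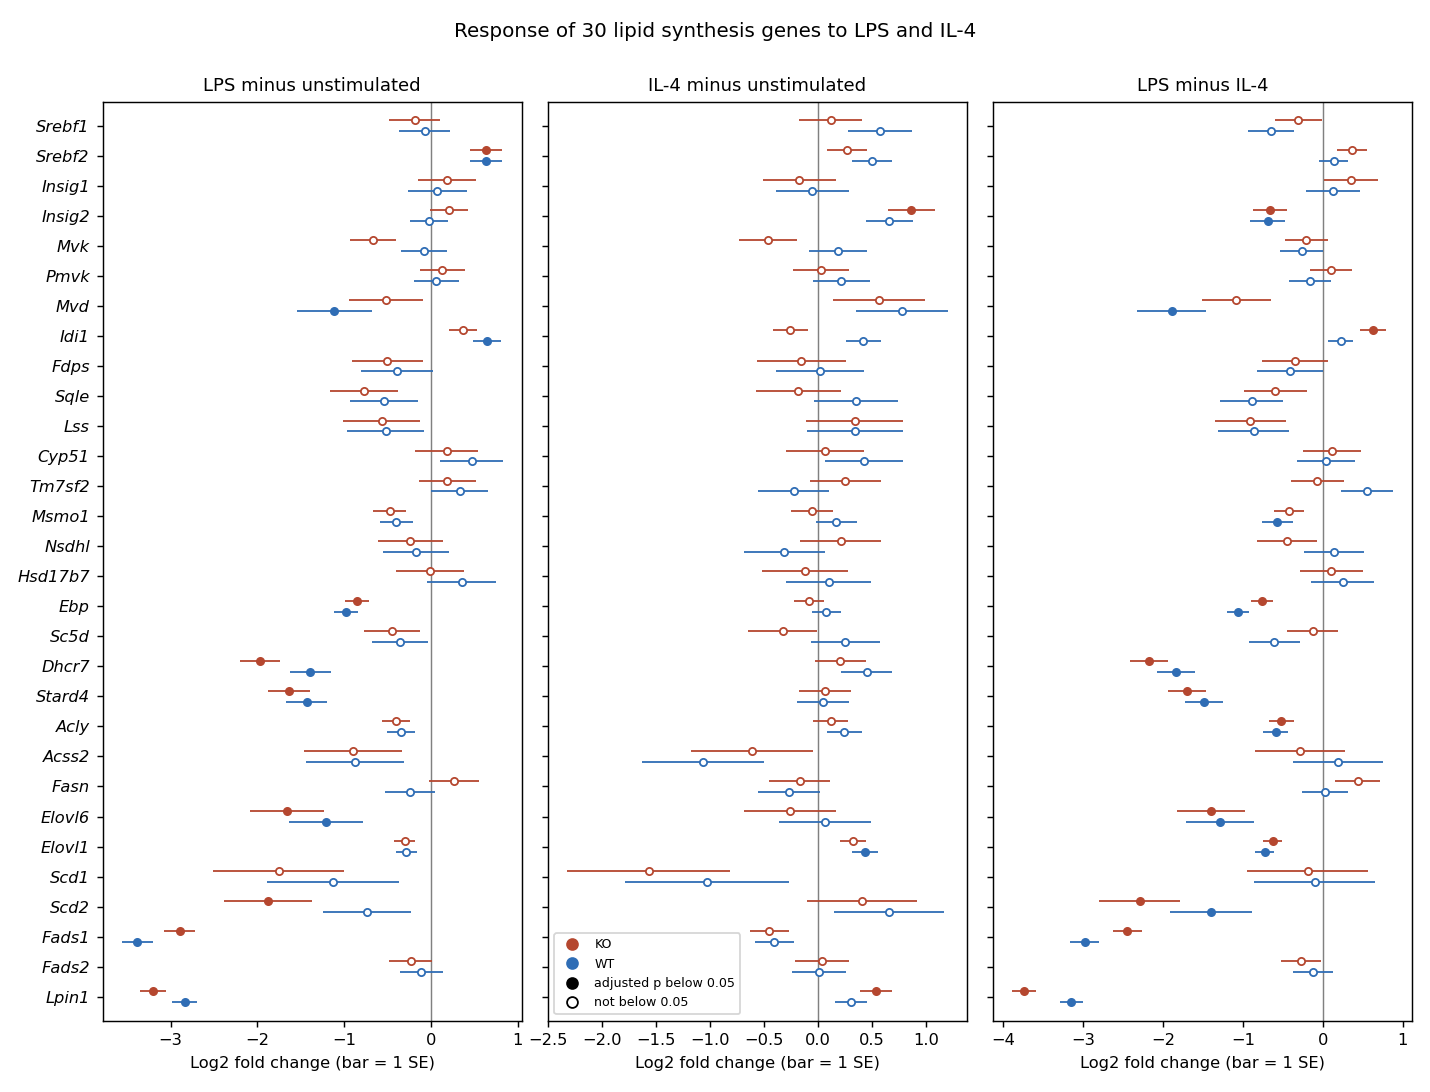
Log2 fold change with its standard error (bars, 1 SE) for the 30 tested genes, from regulators at the top to Lpin1 at the bottom, for LPS against unstimulated (left), IL-4 against unstimulated (middle) and LPS against IL-4 (right), in Nur77-KO (red) and WT BMM (blue). Filled circles have an adjusted p below 0.05, and the points farthest to the left in the LPS panels are Fads1 and Lpin1.

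The promoters of 4 of the genes that fell with LPS in both genotypes are shown because the genes moved together. They are the 250 bases before a RefSeq start on GRCm38.p6, 5′ to 3′ on the gene's strand. Each CCAAT, the box bound by NF-Y, or its complement ATTGG is in capitals. The promoters of Ebp and Dhcr7 lie at chrX:8193513-8193762 (minus strand) and chr7:143829964-143830213 (plus strand). Those of Elovl6 and Lpin1 lie at chr3:129532136-129532385 (plus strand) and chr12:16610967-16611216 (minus strand). Dhcr7 has 3 starts in the table, and the 1 shown was picked because it holds CCAAT. The others hold 0, among them that nearest the 5′ end of the gene. The start shown for Dhcr7, at 143830214, lies inside the gene, which begins at 143823167. The only Lpin1 start in the table, at 16610966, also lies inside its gene, whose 5′ end is at 16653903.
Ebp: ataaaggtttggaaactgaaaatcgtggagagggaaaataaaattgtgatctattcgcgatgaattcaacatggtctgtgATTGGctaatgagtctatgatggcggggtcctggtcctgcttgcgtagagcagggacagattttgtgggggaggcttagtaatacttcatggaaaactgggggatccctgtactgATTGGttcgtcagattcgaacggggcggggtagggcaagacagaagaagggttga
Dhcr7: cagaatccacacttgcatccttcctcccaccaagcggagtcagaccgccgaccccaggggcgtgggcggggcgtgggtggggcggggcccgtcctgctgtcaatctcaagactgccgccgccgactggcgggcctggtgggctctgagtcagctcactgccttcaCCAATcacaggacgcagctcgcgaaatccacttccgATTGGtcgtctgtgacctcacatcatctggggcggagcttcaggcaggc
Elovl6: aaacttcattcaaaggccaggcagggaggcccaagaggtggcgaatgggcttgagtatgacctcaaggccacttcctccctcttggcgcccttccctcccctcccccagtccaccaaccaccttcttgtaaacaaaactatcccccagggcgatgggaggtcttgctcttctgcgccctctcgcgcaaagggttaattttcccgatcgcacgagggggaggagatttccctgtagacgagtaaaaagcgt
Lpin1: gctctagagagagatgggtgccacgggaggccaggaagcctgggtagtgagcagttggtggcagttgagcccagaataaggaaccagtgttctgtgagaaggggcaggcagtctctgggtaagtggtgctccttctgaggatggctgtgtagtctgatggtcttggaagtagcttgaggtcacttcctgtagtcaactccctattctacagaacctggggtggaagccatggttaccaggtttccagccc
Ebp holds 2 such boxes, Dhcr7 holds 2 at the start picked for them, and Elovl6 and Lpin1 hold 0. Promoters of 27 of the 34 genes matched the RefSeq table, read from 250 bases before to 50 after each start on both strands. CCAAT was present in 22 of those 27 (81.5%) and in 21 of the 24 that were also tested (87.5%), against 41.1% of all 27025 genes of the table. The sterol regulatory element TCACNCCAC was present in 1 of the 27, Hmgcs1, against 1.44% of all genes, and did not overlap a CCAAT there. The element AAAGGTCA, which Nur77 binds as a monomer, was present in 0 of the 27, against 1.7% of all genes.

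Set against IL-4, which shares the time in culture, LPS gave lower values for more of these genes. In Nur77-KO BMM 10 of 30 genes were lower with LPS than with IL-4 and 1 was higher, against 23% and 13.8% of all genes. In WT BMM 12 of 30 were lower and 0 higher, against 23.4% and 15.1% of all genes. The same 10 genes were lower in both genotypes, namely Insig2, Ebp, Dhcr7, Stard4, Acly, Elovl6, Elovl1, Scd2, Fads1 and Lpin1, and Mvd and Msmo1 also passed in WT BMM. In Nur77-KO BMM Mvd was 1.08 lower (adjusted p = 0.059, and 0.039 with the replicate number as a block) and Msmo1 0.42 lower (adjusted p = 0.103). Without the 4 arrays both passed in Nur77-KO BMM too (Mvd, -1.04, adjusted p = 0.00071, and Msmo1, -0.60, adjusted p = 0.0056). That fit called 15 of 30 lower and 1 higher in Nur77-KO BMM, against 25.2% and 15.2% of all genes, and 16 lower and 1 higher in WT BMM, against 26.6% and 16.5%. Fdps, Sqle and Lss were then lower in both genotypes, and Srebf1 in WT BMM. With all arrays a second, dimmer Lss probe, detected on 11 arrays, went the other way. It averaged 5.94 with LPS, against 5.23 with IL-4, in Nur77-KO BMM, and 6.02, against 5.05, in WT BMM. The comparisons of LPS with IL-4 share the LPS arrays with those above and are not independent of them.

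Insig2, which retains SREBP in the endoplasmic reticulum, measured 8.33, 9.11 and 9.24 with LPS in Nur77-KO BMM, against 9.29, 9.62 and 9.76 with IL-4. The arrays of WT BMM read 8.66, 8.75 and 8.16 with LPS, against 9.05, 9.24 and 9.34 with IL-4. The groups did not overlap (log2 fold change -0.66, adjusted p = 0.025 in Nur77-KO and -0.69, adjusted p = 0.019 in WT BMM). Without LPS replicate 1 or IL-4 replicate 2 or 3 the Nur77-KO call was lost, and without LPS replicate 3 or IL-4 replicate 3 the WT call was lost (adjusted p up to 0.143 and 0.097). The Nur77-KO difference was -0.38 without LPS replicate 1. Both calls were lost with median or cyclic loess normalization. The Nur77-KO call was also lost with the mean of the gene's probes, slide as a fixed block or a fit of only the groups compared. A second Insig2 probe averaged 8.96 with LPS, against 9.22 with IL-4, in Nur77-KO BMM, and 8.45, against 9.02, in WT BMM.

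Acly, the ATP citrate lyase that supplies acetyl-CoA, measured 11.37, 11.76 and 11.57 with LPS in Nur77-KO BMM, against 11.92, 12.17 and 12.18 with IL-4. In WT BMM it measured 11.34, 11.43 and 11.28 with LPS, against 11.66, 11.87 and 12.28 with IL-4. On the log2 scale Acly was lower by 0.52 in Nur77-KO (adjusted p = 0.017) and by 0.59 in WT BMM (adjusted p = 0.0071). Without LPS replicate 1 or IL-4 replicate 2 or 3 the Nur77-KO call for Acly was lost (adjusted p up to 0.0759).

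Elovl1, which elongates very long-chain fatty acids, measured 12.48, 12.38 and 12.34 with LPS in Nur77-KO BMM, against 12.96, 13.00 and 13.12 with IL-4. In WT BMM it measured 12.20, 12.05 and 12.24 with LPS, against 12.87, 12.85 and 12.95 with IL-4. On the log2 scale it was lower by 0.63 in Nur77-KO and by 0.73 in WT BMM (adjusted p = 0.00053 and 0.00013). The Nur77-KO call was lost with the mean of the gene's probes and with median or cyclic loess normalization, and the WT call with median normalization. With all arrays Idi1 was the 1 gene that was higher with LPS, in Nur77-KO BMM, with 6.83, 7.11 and 7.03 against 6.07, 6.55 and 6.47 with IL-4 (log2 fold change 0.63, adjusted p = 0.0052), and without the 4 arrays it was also higher in WT BMM (0.41, adjusted p = 0.025).

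The calls for Ebp, Dhcr7, Stard4, Elovl1, Fads1 and Lpin1 with LPS against IL-4 held in both genotypes whichever array was left out. So did those for Idi1 and Scd2 in Nur77-KO BMM and for Mvd and Acly in WT BMM. In WT BMM the Msmo1 call was lost without LPS replicate 1 or 3 or IL-4 replicate 2 (adjusted p up to 0.108), that of Elovl6 without these or IL-4 replicate 3 (up to 0.134), and that of Scd2 without any 1 array but IL-4 replicate 1 (up to 0.166). In Nur77-KO BMM the Elovl6 call was lost without LPS replicate 1 or IL-4 replicate 2 or 3 (up to 0.0807). Slides were inferred from the running numbers of the arrays. On those that carry both stimuli, the median difference of the 30 genes was -0.50 and -0.56 in Nur77-KO BMM (2 slides). In WT BMM it was -0.95 (1 slide, whose LPS array is WT replicate 3, which stands apart). The adipocyte marker Adipoq was detected on all 6 IL-4 arrays, at 7.59 to 8.43, and on none of the other 12. Of the 5 other adipocyte markers only Lep was detected, at 4.99 to 6.73, and the part of Adipoq-expressing cells in the differences from IL-4 was not tested.

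With IL-4 against no stimulus few of these genes passed when all arrays were fitted. In Nur77-KO BMM Insig2 and Lpin1 rose (2 of 30, against 3.12% of all genes), and in WT BMM Elovl1 rose (1 of 30, against 3.68%). No gene of the 30 fell in either genotype, against 2.42% of all genes in Nur77-KO and 3.08% in WT BMM. A log2 fold change above 0 was found for 16 of 30 genes in Nur77-KO BMM, against 49.6% of all genes, and for 23 of 30 in WT BMM, against 48.8%. Insig2 measured 9.29, 9.62 and 9.76 with IL-4 in Nur77-KO BMM, against 8.75, 8.54 and 8.77 unstimulated (log2 fold change 0.87, SE 0.22, adjusted p = 0.026). In WT BMM it measured 9.05, 9.24 and 9.34 with IL-4, against 8.56, 8.51 and 8.58 unstimulated, which did not overlap but did not pass (log2 fold change 0.66). Adipoq moved with IL-4 in both genotypes, with 7.65, 8.43 and 8.11 in Nur77-KO BMM and 7.59, 8.12 and 8.05 in WT BMM, and was at background on all unstimulated arrays. Of 6 stromal markers 4 were lower without overlap with IL-4 in Nur77-KO and 3 in WT BMM, 0 of them called, and their part and that of Adipoq were not tested. A second Insig2 probe differed by 0.87 in Nur77-KO and 0.51 in WT BMM.

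Lpin1 measured 8.48, 8.70 and 8.45 with IL-4 in Nur77-KO BMM, against 7.93, 8.02 and 8.07 unstimulated (log2 fold change 0.54, SE 0.15, adjusted p = 0.044). Elovl1 measured 12.87, 12.85 and 12.95 with IL-4 in WT BMM, against 12.30, 12.59 and 12.45 unstimulated (log2 fold change 0.44, SE 0.12, adjusted p = 0.036). These 3 calls are near the threshold, and in WT BMM the thresholds of the study (unadjusted p under 0.05 and at least 1.4-fold) passed 2 genes, Srebf2 and Insig2, against 14% of all genes. The Lpin1 call was lost whichever of the 6 arrays was left out (adjusted p 0.0671 to 0.165). The Insig2 call was lost without any 1 of 5 arrays, all but IL-4 replicate 1 (adjusted p up to 0.12), and that of Elovl1 without any 1 of 5, all but unstimulated replicate 2 (adjusted p up to 0.163).

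The 2 IL-4 arrays that stand apart hold the lowest value of their group for 25 of 30 genes in Nur77-KO and 22 of 30 in WT BMM. For Lss, the lanosterol synthase, the IL-4 arrays of WT BMM measured 7.26, 8.75 and 8.77, against 7.86, 8.00 and 7.89 unstimulated. The lowest is the array that stands apart. With all arrays a second, dimmer Lss probe, detected on 11 arrays, changed by -0.22 in Nur77-KO and -0.38 in WT BMM. For Sqle the IL-4 arrays of Nur77-KO BMM measured 9.51, 11.14 and 11.29, against 10.85, 10.61 and 11.01 unstimulated. Without the 4 arrays, which leaves 2 IL-4 arrays per genotype, 6 genes rose and 1 fell with IL-4 in Nur77-KO BMM (Insig2, Mvd, Lss, Cyp51, Dhcr7 and Lpin1 rose, Scd1 fell), against 5.94% and 6.43% of all genes. In WT BMM 13 rose and 2 fell (Srebf1, Srebf2, Insig2, Mvd, Fdps, Sqle, Lss, Cyp51, Hsd17b7, Dhcr7, Elovl6, Elovl1 and Scd2 rose, Scd1 and Fads1 fell), against 8.07% and 8.13% of all genes. The log2 fold changes of the rising genes were 0.55 to 1.02 in Nur77-KO BMM and 0.40 to 1.31 in WT BMM. Among them Mvd rose by 1.02 in Nur77-KO (adjusted p = 0.0020) and 0.93 in WT BMM (adjusted p = 0.0028), and Srebf1, which encodes SREBP-1, rose by 0.99 in WT BMM (adjusted p = 0.0076). These arrays were left out after their values were seen.

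Between Nur77-KO and WT BMM no gene of the 30 passed the threshold when all arrays were fitted, with LPS, with IL-4 or unstimulated (limma, adjusted p at least 0.215, 0.747 and 0.503), where 0.193%, 0.0403% and 0.105% of all genes passed. At an unadjusted p under 0.05 the counts were 4 with LPS (Mvd, Ebp, Fasn and Fads1), 3 with IL-4 (Scd2, Lpin1 and, lower in Nur77-KO BMM, Idi1) and 2 unstimulated (Msmo1 and Scd2), against 8.38%, 4.73% and 5.06% of all genes. The values were nevertheless mostly higher in the knockout. In unstimulated cells 27 of 30 genes had a log2 fold change above 0, against 50.2% of all genes, with a median of 0.27, against 0.00 over all genes. All 3 Nur77-KO arrays lay above all 3 WT arrays for 20 of 30 genes, against 11.1% of all genes, and below them for 0, against 7.94%. With LPS 23 of 30 were above 0 (all genes, 50.3%) and 4 did not overlap (all genes, 6.39%), and with IL-4 24 of 30 were above 0 (all genes, 51.9%) and 3 did not overlap (all genes, 4.18%). Lower without overlap were 0 genes with LPS (all genes, 5.64%) and Idi1 with IL-4 (1 of 30, all genes, 3.5%). The study's thresholds passed 3 with LPS (Mvd, Fasn and Fads1), and Scd2 (1 of 30) both with IL-4 and unstimulated, against 6.24%, 3.24% and 3.56% of all genes. Fasn with LPS rests on replicate 1 of Nur77-KO, which stands apart and alone detected it, at 6.19. The other LPS arrays were at background, at 4.79 and 4.81 in Nur77-KO and 4.43 to 4.84 in WT BMM.

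**Figure D3:**
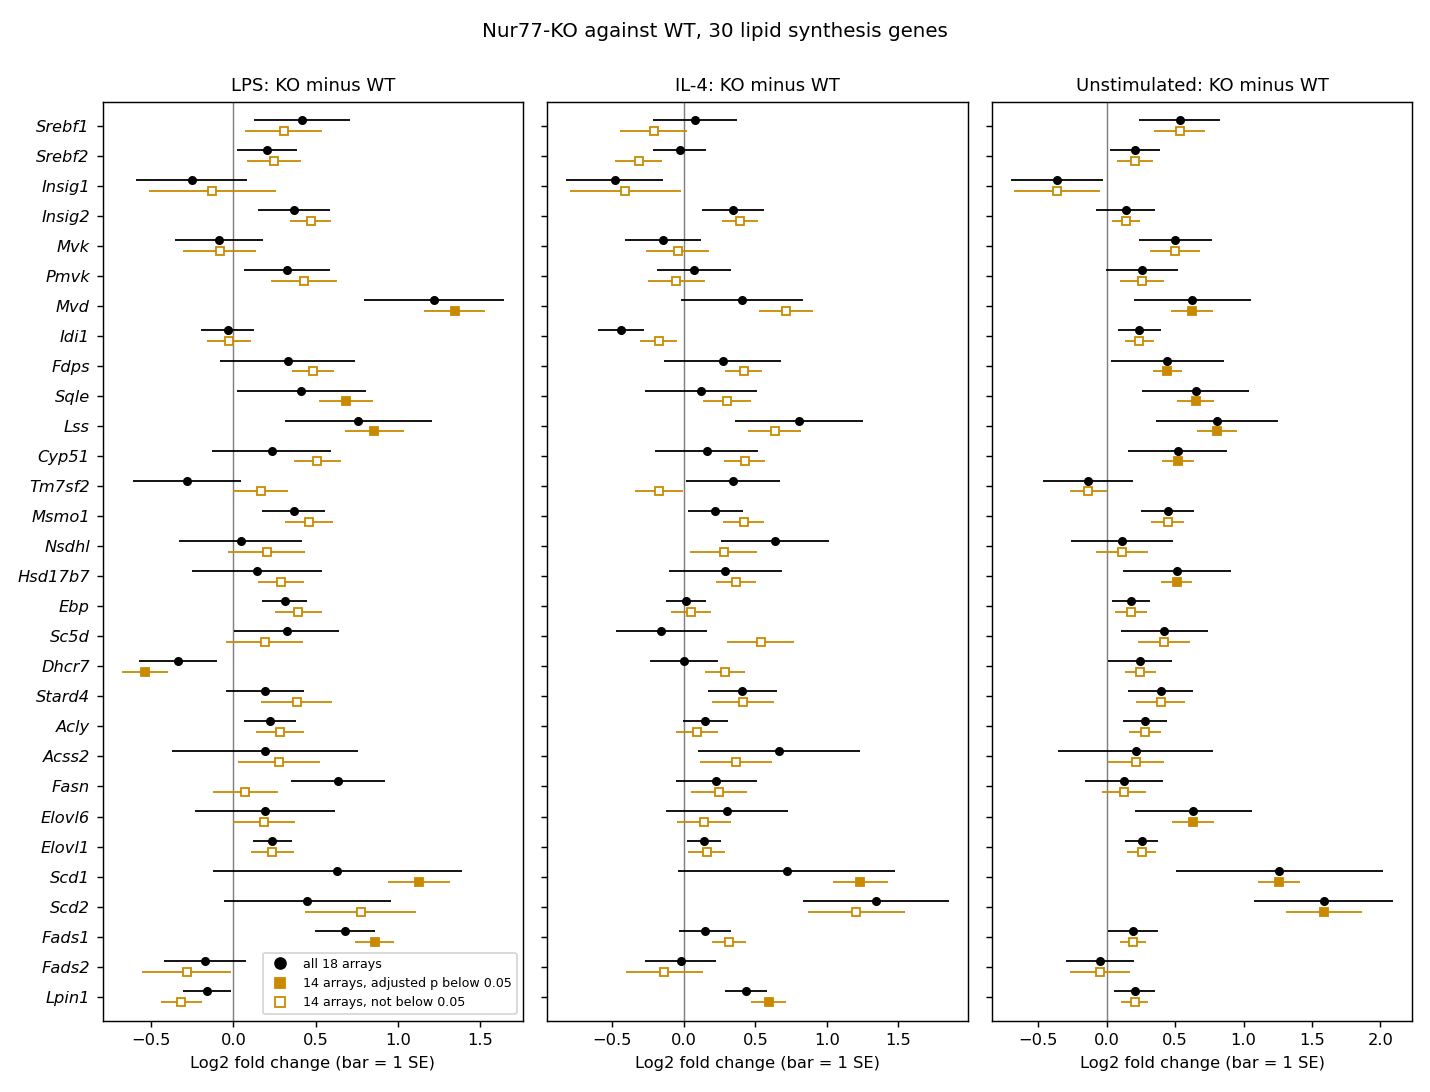
Log2 fold change of Nur77-KO against WT BMM with its standard error (bars, 1 SE) for the 30 tested genes with LPS (left), with IL-4 (middle) and unstimulated (right), fitted on all 18 arrays (black circles) and on 14 arrays (yellow squares, filled where the adjusted p is below 0.05). Of the black circles in the unstimulated panel 27 of 30 lie right of 0, and none of the black circles of the 3 panels passed the threshold.

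The 20 genes that did not overlap in unstimulated cells came from every step: 2 of 4 regulators, 4 of 5 tested enzymes from mevalonate to farnesyl diphosphate, 6 of 10 from squalene to cholesterol, Stard4, 6 of 9 fatty acid genes and Lpin1. Scd2 differed most, with 6.77, 7.20 and 7.30 in Nur77-KO BMM, against 5.10, 5.32 and 6.09 in WT BMM. Its log2 fold change was 1.59 (limma, 95% confidence interval 0.51 to 2.67, adjusted p = 0.503). Only 1 of the 3 WT arrays detected Scd2, so the size of this difference is uncertain. Scd1 measured 8.09, 8.08 and 8.20 in Nur77-KO BMM, against 6.83, 6.95 and 6.81 in WT BMM (1.26, interval -0.35 to 2.87). Lss, with no overlap, differed by 0.81 (interval -0.14 to 1.75). That difference depends on the probe. A second, dimmer Lss probe, detected on 11 arrays, differed by 0.01 unstimulated and by -0.08 with LPS. Sqle measured 10.85, 10.61 and 11.01 in Nur77-KO BMM, against 10.11, 10.18 and 10.23 in WT BMM (0.65, interval -0.18 to 1.48). The intervals use the spread over all 6 groups, and for Scd1 the SD was 0.066 (Nur77-KO) and 0.073 (WT) in the unstimulated groups but up to 1.69 in the others (Nur77-KO with IL-4).

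Fitted on the 6 unstimulated arrays by themselves, Scd1 and Scd2 passed (2 of 30, against 2.18% of all genes). Without the 4 arrays that stand apart, all of them stimulated, 9 genes passed, all higher in unstimulated Nur77-KO BMM (Mvd, Fdps, Sqle, Lss, Cyp51, Hsd17b7, Elovl6, Scd1 and Scd2), against 2.64% of all genes, and 0 were lower, against 1.15%. With LPS 5 were then higher (Mvd, Sqle, Lss, Scd1 and Fads1) and Dhcr7 was lower, against 3.21% and 2.1% of all genes, and with IL-4 Scd1 and Lpin1 were higher, against 1.84%, and 0 were lower, against 0.676%. Dhcr7 was at background on every Nur77-KO LPS array. The WT LPS arrays kept, at 5.76 and 5.71, lay near their detection floors of 5.74 and 5.61. Leaving out only replicate 1 of Nur77-KO with LPS, 2 genes passed with LPS, namely Mvd (1.72 higher, adjusted p = 0.050) and Fads1 (0.90 higher, adjusted p = 0.013). Mvd with LPS measured 7.23, 8.76 and 8.71 in Nur77-KO BMM, against 7.45, 7.33 and 6.27 in WT BMM, where replicate 1 of Nur77-KO and replicate 3 of WT are those left out. Fads1 with LPS measured 9.71, 10.47 and 10.31 in Nur77-KO BMM, against 9.64, 9.42 and 9.39 in WT BMM, and was 0.68 higher with all arrays (unadjusted p = 0.0020, adjusted p = 0.215) and 0.86 higher without the 4 (adjusted p = 0.0014).

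Y-linked expression moved with these differences. On the 7 Nur77-KO arrays that carry Eif2s3y, 23 to 28 of the 30 genes lay above the WT mean of the same stimulus, with a median difference of 0.27 to 0.41. On the 2 Nur77-KO arrays without it, 12 (LPS) and 11 (IL-4) of 30 lay above the WT mean, with a median difference of -0.11 and -0.19. Those 2 arrays also stand apart and had low stromal and high neutrophil markers for their group. Eif2s3y, these markers and the deviation of the array cannot be told apart there. The WT means include replicate 3 with LPS and replicate 1 with IL-4, which stand apart. Those WT arrays hold the lowest value of their group for 20 (LPS) and 22 (IL-4) of 30 genes, which lowers the mean. On the inferred slides that carry both genotypes, 27 and 25 of 30 genes were higher in unstimulated Nur77-KO BMM. With LPS 27 were higher on 1 slide. Its WT array is replicate 3, which stands apart and is the lowest of its group for 20 of 30 genes. With IL-4 8 and 23 were higher, the 8 being the slide with the Nur77-KO array without Eif2s3y. With slide as a fixed block 13 of 30 were above 0 with IL-4.

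Markers of other cells also differed in unstimulated cells. The 6 detected of 8 stromal markers averaged 7.89 to 8.14 in Nur77-KO BMM, against 6.32 to 6.59 in WT BMM, and 5 of the 6 did not overlap (Lum and Thy1 were not detected). The 6 detected of 7 neutrophil markers averaged 7.88 to 8.06 in Nur77-KO BMM, against 5.89 to 6.41 in WT BMM, and all 6 did not overlap. The 7 detected of 8 macrophage markers averaged 11.03 to 11.13 in Nur77-KO BMM, against 11.32 to 11.39 in WT BMM, and 5 were lower without overlap. No marker of these 3 lists passed the test with all arrays, and their part in the differences was not tested.

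Scd1, a stearoyl-CoA desaturase, was low where the stromal markers were low. It measured 4.55, 7.44 and 7.11 in LPS-treated Nur77-KO BMM, against 6.46, 5.83 and 4.91 in LPS-treated WT BMM. With IL-4 it measured 4.60, 7.57 and 7.49 in Nur77-KO BMM, against 4.92, 6.39 and 6.21 in WT BMM. The lowest value of each of these 4 groups is on the array that stands apart, none of these 4 arrays detected Scd1, and all other 14 arrays did. Over the 18 arrays the low stromal mean and the low Scd1 value thus fell on the same 4 arrays, which share neither genotype nor stimulus. These arrays also held the highest neutrophil mean of their group, and the part of either marker list in Scd1 was not tested.

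**Figure D4:**
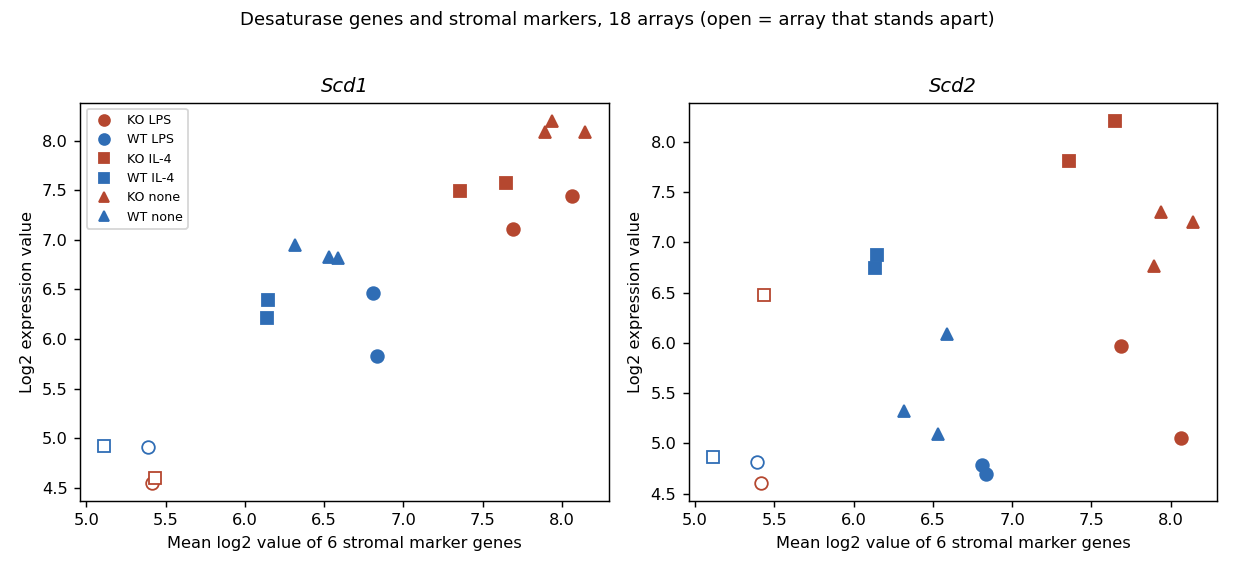
Log2 expression value of Scd1 (left) and Scd2 (right) against the mean log2 value of 6 stromal marker genes on each of the 18 arrays (red, Nur77-KO; blue, WT; circles, LPS; squares, IL-4; triangles, unstimulated; open symbols, the 4 arrays that stand apart). Scd1 is 4.55 to 4.92 on the 4 open symbols, and the 3 unstimulated Nur77-KO arrays lie at the upper right at 8.08 to 8.20.

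The responses to LPS and to IL-4 were set against each other between the genotypes with interaction terms, and 0 of 30 genes passed in either (limma, adjusted p under 0.05), where 0.0161% (LPS) and 0.00805% (IL-4) of all genes passed. At an unadjusted p under 0.05 the counts were 0 for LPS and 1 for IL-4, against 4.52% and 2% of all genes. For the genes that fell with LPS in both, the difference of the responses (Nur77-KO minus WT) was 0.49 for Fads1 (95% confidence interval -0.06 to 1.04), -0.20 for Stard4 (-0.92 to 0.52) and 0.14 for Ebp (-0.28 to 0.55). For Lpin1, Elovl6 and Dhcr7, at background with LPS in at least 1 genotype, no size of the difference is given. The 1 gene for IL-4 was Idi1, at -0.68 (interval -1.16 to -0.20, adjusted p = 1.00), which also met the study's thresholds, as 1.9% of all genes did. The interval for Scd1 with LPS was wide, from -2.91 to 1.65.

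Genes around the pathway were described from 5 lists, each to be read against the 14.1% and 23.7% of all genes that rose and fell with LPS in Nur77-KO BMM and the 15.5% and 24.3% in WT BMM. In the oxysterol and LXR list, 2 of 7 tested genes rose and 2 fell with LPS in Nur77-KO BMM, and 2 rose and 3 fell in WT BMM. Ch25h, which makes 25-hydroxycholesterol, an oxysterol that blocks SREBP processing, measured 10.68, 11.44 and 11.31 with LPS in Nur77-KO BMM, against 7.48, 7.39 and 6.92 unstimulated. On the log2 scale, as for the genes that follow, it rose by 3.88 in Nur77-KO and by 4.50 in WT BMM (adjusted p = 0.0021 and 0.00057). Nr1h3, which encodes LXR alpha, rose by 2.75 in Nur77-KO and 2.80 in WT BMM (adjusted p = 1.3e-07 and 9.4e-08). Cyp27a1, the sterol hydroxylase, fell by 2.20 in Nur77-KO and 2.80 in WT BMM, and the sterol exporter Abcg1 fell by 2.00 in Nur77-KO and 1.87 in WT BMM.

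In the list of SREBP escort proteins, proteases and INSIG turnover, 2 of 7 tested genes rose and 0 fell in each genotype with LPS. They were Rnf145 (1.14 in Nur77-KO and 1.61 in WT BMM) and Rnf139 (1.01 in Nur77-KO and 0.97 in WT BMM), both sterol-sensing ubiquitin ligases. In the non-sterol isoprenoid branch, 2 of 8 rose and 4 fell in Nur77-KO BMM and 1 rose and 4 fell in WT BMM, among them the farnesyltransferase subunit Fntb (-1.35 in Nur77-KO and -1.41 in WT BMM) and Dhdds, of dolichol synthesis (-0.93 in Nur77-KO and -0.70 in WT BMM).

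In the list of other fatty acid supply, elongation and activation genes, 3 of 12 rose and 3 fell in Nur77-KO BMM and 3 rose and 4 fell in WT BMM. The acyl-CoA synthetases went both ways: Acsl3 fell (-1.62 in Nur77-KO and -1.46 in WT BMM) while Acsl4 (0.88 in Nur77-KO and 1.26 in WT BMM) and Acsl5 (1.11 in Nur77-KO and 1.22 in WT BMM) rose. Elovl5, the elongase of polyunsaturated fatty acids, fell by 1.45 in Nur77-KO and 1.58 in WT BMM (adjusted p = 6.4e-07 and 2.1e-07). Of 9 tested genes of glycerolipid assembly, Dgat2, which makes triglyceride, was at background on all 12 arrays without LPS and rose at least 2.03-fold in Nur77-KO and at least 2.87-fold in WT BMM (adjusted p = 3.9e-05 and 2.5e-07), and Dgat1 fell in WT BMM (-0.97, adjusted p = 0.032). No gene of the 5 lists passed with IL-4 against unstimulated or between genotypes when all arrays were fitted.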

How the data were processed

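RNA of WT and Nur77-KO BMM was profiled on 18 arrays, grouped by the deposited labels. The sample labels used here give a running number per array and no slide, and the 6 slides follow blocks of 6 running numbers. The deposited intensity per bead type and detection p-value per probe came, per the labels, from GenomeStudio 2011.1. The deposited log2 values, used here, were made by the authors with limma 3.10.2 in R 2.14.0 by normexp background correction with control probes, quantile normalization and log2 transformation. Of 45281 probes 34885 carry 1 gene symbol, 18 carry several (not used), and the probe table lists no gene for 10378. The 19298 probes with a detection p under 0.05 on 1 array or more were used, and the brightest stood for its gene. Detected probes per array numbered 11829 to 16283, and the small number of arrays limits the precision.

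Group means were fitted over all arrays with limma 3.58.1 in R 4.3.3 (12 residual and 3.65 prior degrees of freedom) after the script was tested on simulated data. Tests were two-sided, and p-values were adjusted by Benjamini and Hochberg over 12417 genes within each comparison. Bounds use the lowest detected value per array (5.30 to 6.04). The 34 genes, the pathway and marker lists and the tests were chosen with earlier results of these data known, so that patterns already seen are not independent support. Per step of the pathway, the genes that passed with the largest change are given by array, others by range and counts, and up to 4 passing genes are named per further list. The genes given for the arrays that stand apart and for the genotypes were picked after their values were seen.

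Alternatives were neqc from the bead intensities with detection p-values, median or cyclic loess normalization, other detection filters, the mean of a gene's probes, a fit restricted to the groups in question, slide or replicate blocks, a trended and robust prior, the study's thresholds and leaving out each array. The fit that leaves out 4 arrays was chosen after seeing the data.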

Additional observations from a re-analysis of the deposited data

How the results depend on the processing

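With the values recomputed from bead intensities, detection on at least 3 arrays, or slide as a random block, all 43 calls of a gene in a comparison of stimuli held, and 18 of the 43 held in every setting and leave-one-out fit. Scaling by the array median (median normalization), under which all genes had a median of -0.46 with LPS in Nur77-KO BMM and of 0.47 in unstimulated Nur77-KO against WT BMM, kept 19 of 43 calls and reversed Srebf2 with LPS in Nur77-KO BMM (-0.16). Under it the 30 genes had a median of 0.83 in unstimulated Nur77-KO against WT BMM, with 29 of 30 above 0, where 83.9% of all genes were. With cyclic loess normalization the median was 0.29 with 27 above 0, where 48% of all genes were. Of the genes called with LPS in Nur77-KO BMM 37.3% were higher in the analysis reported, 15.7% with median and 46.3% with loess normalization, and with IL-4 the shares were 56.3% and, with median normalization, 40.2% in Nur77-KO and 54.5% and 70% in WT BMM. The cause of these changes was not tested.

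The counts of the 30 genes that passed were as follows. Median normalization gave 3 with LPS in WT BMM, 0 with IL-4 in either genotype, and 5 (Nur77-KO) and 4 (WT) with LPS against IL-4. With LPS in WT BMM it lost the calls of Srebf2, Idi1, Mvd, Ebp, Dhcr7 and Elovl6. In Nur77-KO BMM with IL-4, loess normalization, the mean of a gene's probes, the replicate block and a fit of only the groups compared gave 1 each, and slide as a fixed block gave 0. In WT BMM with IL-4 the mean of probes, the fixed block, the replicate block and the fit of only the groups gave 0 each. Replicate numbers were not used as pairs, since same-numbered arrays correlated at a mean r of 0.06 (-0.32 to 0.52), against -0.02 for other numbers, and 11 of 18 arrays correlated best with their own number. The replicate block kept 41 of 43 calls.

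Without the 4 arrays that stand apart, 16 (Nur77-KO) and 15 (WT) genes passed with LPS, 7 and 15 with IL-4, 16 and 17 with LPS against IL-4, and between genotypes 6 with LPS, 2 with IL-4 and 9 unstimulated. Unstimulated, 2 passed when only those groups were fitted. The study's thresholds gave 2 with IL-4 in WT BMM, between genotypes 3 with LPS, 1 with IL-4 and 1 unstimulated, and 1 for the IL-4 interaction. Leaving out 1 array at a time gave 8 to 12 (Nur77-KO) and 7 to 8 (WT) with LPS, 0 to 1 and 0 to 2 with IL-4, 8 to 14 and 8 to 15 with LPS against IL-4, 0 to 2 between genotypes with LPS, and 0 throughout for the other genotype comparisons and both interactions. Dim probes limit what can be seen: Fasn, Fads2, Mvk, Sc5d and Srebf1 were near background on 9 arrays or more.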
